A study of Mus musculus with 87 samples.

Results

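The comparison described here sets mouse livers collected 72 h after partial hepatectomy (PH), the removal of the larger part of the liver, against livers collected 48 h after it, both at Zeitgeber time ZT2, the early light and fasting phase. Members were chosen by group label alone: the 5 libraries of the 48 h group (X48) and the 3 libraries of the 72 h group (X72), which make up 8 of the 80 libraries with usable values. Each library is poly(A)-selected RNA from 1 liver. All 8 livers came from male C57BL/6 mice of 12 to 14 weeks that had been kept on cycles of 12 h light and 12 h dark with food in the dark phase, and PH was performed at ZT2. For orientation, values are also given for 9 resting livers without surgery (C0), for 3 livers taken 48 h after sham surgery (S48), and for livers at 36 h (X36, 6 livers), 44 h (X44, 3 livers) and 1 week (X1W, 3 livers) post-PH. C0, S48 and X1W were taken at ZT2 like X48 and X72. X36 and X44 fell in the dark phase with food, so they also differ in clock time and feeding. The 8 mice were separate animals, so the replicate error is that between individual livers. The study operated on mice in sets of 3 and killed each set together, so livers of 1 time point can share a session. The labels name no session, so a difference between sessions cannot be told apart from that between 72 and 48 h. The livers were collected in 3 separate time periods, from each of which 3 of the C0 livers came, but the labels assign no liver to a period. The study lists all 5 X48 and all 3 X72 livers under the same period, so their comparison lies within that period. Which C0 livers share it is not known, so a difference between periods cannot be told apart from that between X72 or X48 and C0. The shared spread runs over all periods. The values are for whole tissue, in which fewer cells of a type and less RNA per cell cannot be told apart.

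After PH in the mouse, hepatocytes of the remaining lobes leave quiescence, replicate their DNA and then divide, and the other liver cells follow. Transcripts for replication are made from the G1/S transition on under E2F control, whereas those for mitosis accumulate in G2 under control of the DREAM and MuvB complexes with Foxm1 and B-Myb, which act through CHR elements, and of NF-Y, which binds CCAAT. Hepatocytes also carry the metabolic duties of the body: they detoxify ammonia through the urea cycle, make fatty acids and cholesterol under the SREBP transcription factors, conjugate foreign compounds and secrete most plasma proteins.

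The comparison of X72 with X48 asks how the transcript pattern of the dividing liver moved on over a further full day at the same clock time. Levels are RPKM (reads scaled to the length of the exons and to the total of mapped reads). Differences are log2 fold changes, X72 minus X48, on log2(RPKM + 0.25), which understates changes of low transcripts. A gene was called when the limma test gave a Benjamini-Hochberg adjusted p below 0.05 and the difference exceeded 0.5. Each SE and p rests on the spread shared among all groups fitted, not on that of X48 and X72 alone. Of 15396 genes tested, 918 were called (5.96%), of which 343 (2.23%) were higher and 575 (3.73%) lower at 72 h. The median difference over all genes was -0.04. The rises were the larger changes: among called genes, 114 rose and 73 fell by more than 1 on the log2 scale. With the libraries scaled to a common median the split turned to 510 higher and 358 lower, and with a common upper quartile to 469 higher and 387 lower. The count of called genes dropped to 364 when only the 8 livers entered the fit, without the spread shared among all groups. Estimated depth was 20.9 to 38.6 M reads, between 12342 and 12654 genes stood above the detection threshold per library, and the 20 most abundant genes held 35.9% to 39.5% of the summed RPKM, with overlapping ranges in the 2 groups. Leaving out X72 replicate 3 left 197 genes called higher, and leaving out X72 replicate 1 left 343 called lower. Of 125 called genes followed singly, 64 were no longer called by limma when some 1 of the 8 livers was left out, 41 of them without X72 replicate 1 and 29 without X72 replicate 3.

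**Figure D1:**
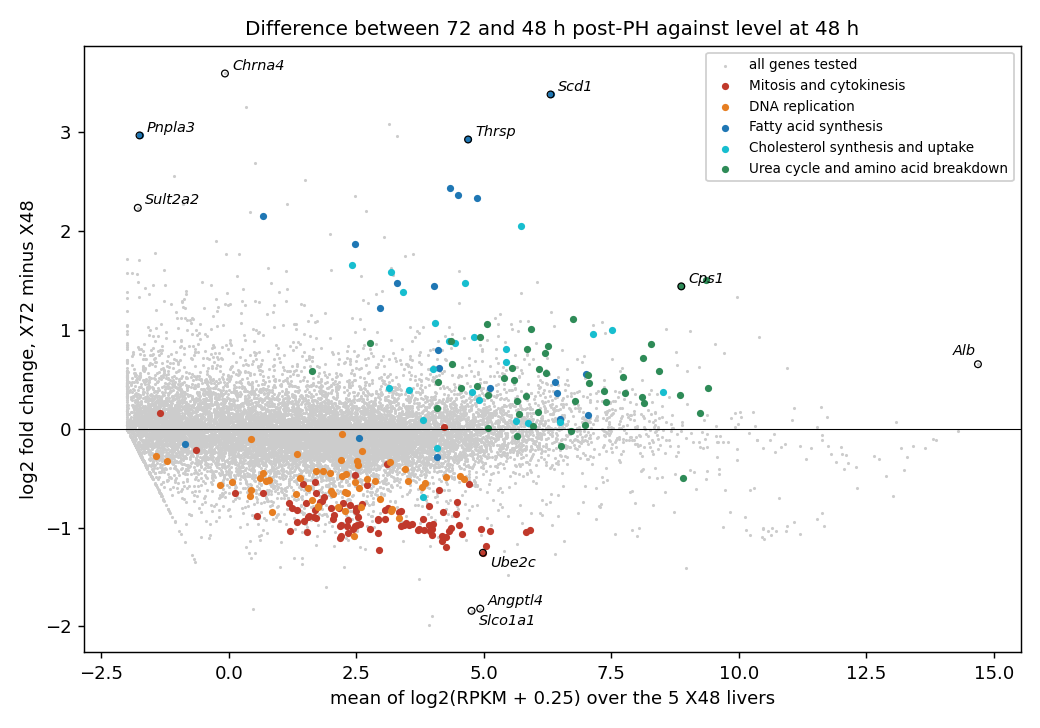
Each point is a gene tested, plotted by its mean level over the 5 X48 livers (x axis, log2(RPKM + 0.25)) and its log2 fold change from 48 to 72 h (y axis), with 5 gene lists coloured and 10 genes named. Points for mitosis and DNA replication lie almost all below 0, while those for fatty acid synthesis reach 3.38 (Scd1) and those for the urea cycle reach 1.5 (Ass1).

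Transcripts of the mitotic apparatus fell as a block. In the mitosis and cytokinesis list, 81 of 94 tested members were called lower and none higher, where 3.73% of all genes tested were called lower; the median difference was -0.92. Cdk1, the kinase that drives entry into mitosis (chromosome 10, 68799383 to 68815686 of NCBIM37, reverse strand), stood at 21.4, 26.9, 33.3, 46.0 and 30.2 RPKM in the 5 X48 livers and 11.2, 17.4 and 17.3 RPKM in the 3 X72 livers. Every X72 liver lay below every X48 liver, and the difference was -1.01 ± 0.28 (SE, adjusted p = 0.0099) by limma, 2.02-fold. Ube2c, the ubiquitin-conjugating enzyme of the anaphase-promoting complex, had 21.98, 25.1, 35.7, 51.5 and 30.1 RPKM in the 5 X48 livers and 7.72, 16.8 and 16.9 RPKM in the 3 X72 livers, again without overlap. This was the largest fall of the list, -1.25 ± 0.32 (SE, adjusted p = 0.0048). The mitotic cyclin Ccnb1 ranged over 14.0 to 29.7 RPKM at 48 h and 4.67 to 13.5 RPKM at 72 h, a difference of -1.10, adjusted p = 0.0016 by limma, and its relative Ccnb2 changed by -1.18, adjusted p = 0.014. Plk1, the polo-like kinase of spindle assembly, stood at 16.6, 21.4, 26.4, 34.2 and 22.9 RPKM in the 5 X48 livers and 7.30, 15.2 and 12.4 RPKM in the 3 X72 livers. Its groups did not overlap and it fell by 1.07 ± 0.29 (SE, adjusted p = 0.0093) on the log2 scale. Without X72 replicate 1, none of these 5 was called by limma, with Cdk1 at -0.81 (adjusted p = 0.13), Ube2c at -0.89 (adjusted p = 0.13), Ccnb1 at -0.67 (adjusted p = 0.13), Ccnb2 at -0.76 (adjusted p = 0.26) and Plk1 at -0.77 (adjusted p = 0.17). Ccnb2 was also not called without X48 replicate 4, at -1.03 (adjusted p = 0.055).

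Members with different mitotic tasks changed by similar amounts. At the kinetochore and its checkpoint, Mad2l1 changed by -1.20, Kif2c by -1.23, the centromeric histone Cenpa by -1.14 and Bub1 by -0.80. Of the chromosomal passenger complex, Aurkb changed by -0.98 and Birc5 (survivin) by -1.04, and all of these were called. The microtubule-bound Tpx2 (-1.01, adjusted p = 0.0028) and the kinetochore subunit Ska1 (-1.04, adjusted p = 7e-06) were also called, with no overlap between the groups. A total of 13 members were not called. They included Cdc20, the anaphase activator, with 36.3, 54.0, 66.5, 94.7 and 46.2 RPKM in the 5 X48 livers and 13.1, 41.4 and 37.3 RPKM in the 3 X72 livers: replicate 2 of X72 lay above replicate 1 of X48, and the adjusted p was 0.069. Mki67, the usual proliferation marker, did not overlap (13.1 to 20.3 RPKM at 48 h and 8.89 to 12.7 RPKM at 72 h) but had a difference of -0.62 with adjusted p = 0.19 by limma, and Top2a, which untangles replicated chromosomes, had -0.78 with adjusted p = 0.075. Spc24 (0.01) and Fam64a (0.16) were the only members of the 94 with estimates above 0.

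The list as a whole separated the 2 groups in each liver. Its level, the median over members of the log2 level minus the C0 mean, was 3.59, 4.00, 4.21, 4.46 and 4.14 in the X48 livers and 2.87, 3.39 and 3.26 in the X72 livers, so that no X72 liver reached the lowest X48 liver. The X72 livers remained far above rest: Cdk1 averaged 0.350 ± 0.2398 RPKM in C0 (n = 9), 0.315 ± 0.101 in sham livers at 48 h (n = 3), 31.5 ± 7.34 at 44 h (n = 3), 31.5 ± 9.20 at 48 h (n = 5), 15.3 ± 3.58 at 72 h (n = 3) and 1.94 ± 0.599 at 1 week (n = 3), each ± SD. The number of calls depended on settings more than the direction did. It was 12 when only the X48 and X72 livers were fitted, 34 with a pseudocount of 0.05 and 47 without X72 replicate 1, the liver with the lowest mitotic level, while the list's median stayed between -1.14 and -0.74 under all settings tried.

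**Figure D2:**
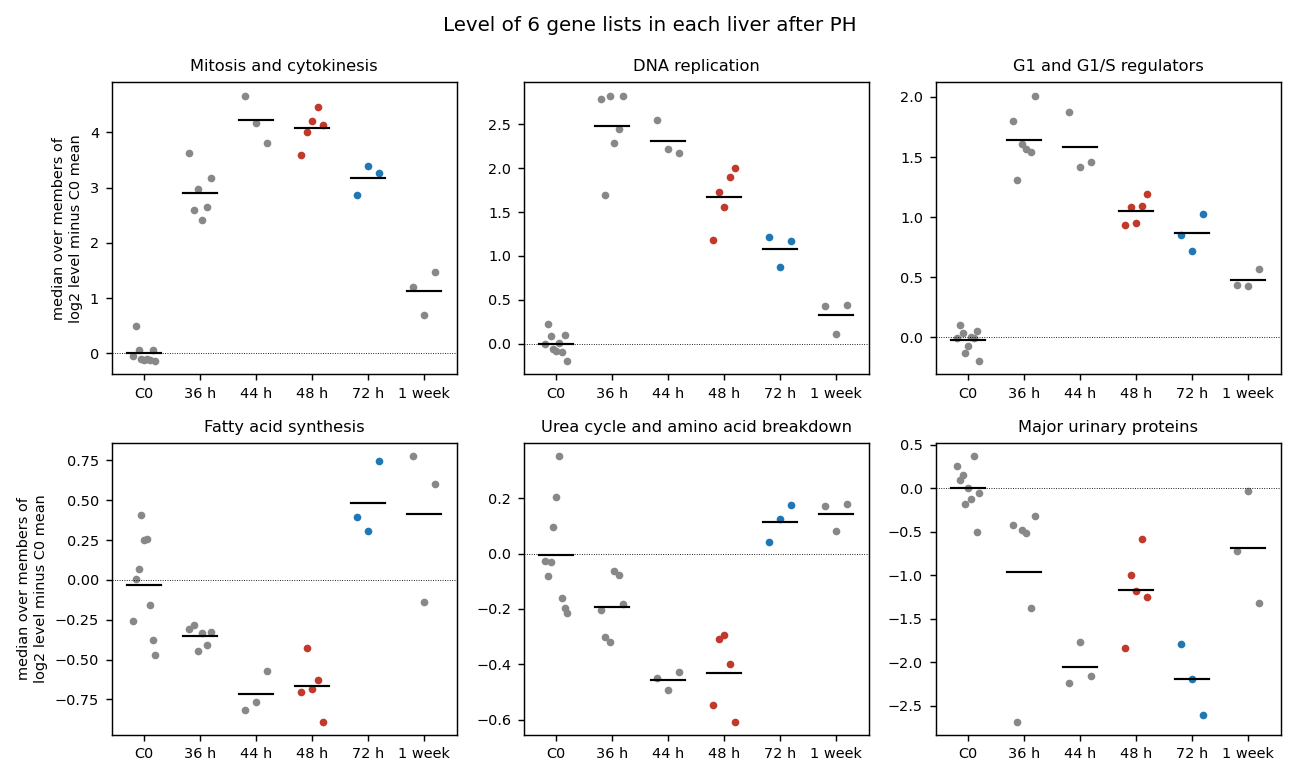
Each point is 1 liver; the y axis is the median over a list's tested members of log2(RPKM + 0.25) minus the C0 mean, the x axis gives untreated livers (C0) and the time post-PH, black bars are group means, and X48 and X72 are coloured red and blue. The mitosis panel is lower at 72 h (2.87 to 3.39) than at 48 h (3.59 to 4.46), whereas the fatty acid and urea panels move from below 0 at 48 h to above 0 at 72 h. X36 and X44 livers were taken in the dark feeding phase, the others at ZT2.

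DREAM and MuvB are known to bind CHR letters and NF-Y to bind CCAAT in the promoters of mitotic genes, so the sequences of 3 such promoters are shown beside 2 lipogenic promoters for contrast. The bases are those before the annotated start site in RefSeq (GRCm38.p6, a later assembly than the NCBIM37 of the expression values), written 5′ to 3′ on the strand of the gene, with CHR letters (TTTGAA or TTCGAA) and CCAAT, on either strand, in capitals for the mitotic genes and CCAAT alone for the lipogenic genes.
Cdk1 (chr10:69352913-69353012, reverse strand): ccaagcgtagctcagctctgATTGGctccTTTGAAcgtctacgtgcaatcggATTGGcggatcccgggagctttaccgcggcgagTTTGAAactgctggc
Ube2c (chr2:164769829-164769928, forward strand): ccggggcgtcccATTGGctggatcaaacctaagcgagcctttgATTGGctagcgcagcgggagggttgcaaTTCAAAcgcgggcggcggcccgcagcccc
Ccnb2 (chr9:70421555-70421654, reverse strand): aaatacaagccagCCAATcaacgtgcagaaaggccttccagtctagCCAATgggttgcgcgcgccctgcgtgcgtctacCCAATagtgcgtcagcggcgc
Fasn (chr11:120824548-120824647, reverse strand): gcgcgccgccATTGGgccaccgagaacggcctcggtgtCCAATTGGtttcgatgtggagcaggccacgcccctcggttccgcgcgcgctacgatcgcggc
Thrsp (chr7:97417551-97417650, reverse strand): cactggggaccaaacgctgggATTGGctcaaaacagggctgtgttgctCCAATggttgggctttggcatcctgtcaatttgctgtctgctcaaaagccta
Within the printed stretch of the mitotic promoters the CCAAT letters began 32 bases apart in Cdk1, 31 in Ube2c and 33 and again 33 in Ccnb2, and in the lipogenic promoters 28 and 3 in Fasn and 27 in Thrsp. CHR letters began 71 and 15 bases before the Cdk1 start and 29 bases before the Ube2c start, and the 2 CHR matches of Ccnb2 lay outside the printed stretch. The Fasn promoter held 3 CCAAT matches and no CHR match, and the Thrsp promoter 2 and none. Promoter sequences (250 bases before to 50 after the start) were at hand for 9206 of 15095 tested symbols. The CHR letters stood in 54 of 73 (74.0%) promoters of the mitosis list, 142 of 384 (37.0%) of all genes called lower, 38 of 232 (16.4%) of those called higher and 1565 of 9206 (17%) of all tested. CCAAT was held by 54 of 73 (74.0%) mitotic promoters, by 13 of 17 (76.5%) of the fatty acid list and by 3973 of 9206 (43.2%) of all. The E2F letters (TTTCCCGC, TTTGGCGC or TTCCCGCC) were in 18 of 42 (42.9%) promoters of the DNA replication list against 622 of 9206 (6.76%) of all, and the sterol-response letters TCACNCCAC in 7 of 232 (3.02%) of the genes called higher against 138 of 9206 (1.499%); they stood in 0 of 16 promoters of the cholesterol list and in 1 of 17 (5.88%) of the fatty acid list. The letters GTTAAT of the HNF1 site were in 27 of 232 (11.6%) of the genes called higher against 551 of 9206 (5.99%). Both strands were searched, and the E2F spellings can overlap each other. These are matches of letters and not shown sites.

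The DNA replication list was lower as well, by a smaller amount. Of its 53 tested members 19 (35.8%) were called lower, against 3.73% of all genes tested, and none higher. The median difference was -0.53, and every member had an estimate below 0. Rpa2, a subunit of the single-strand binding protein RPA, stood at 3.81, 4.81, 4.46, 7.28 and 6.59 RPKM in the 5 X48 livers and 2.31, 2.32 and 2.38 RPKM in the 3 X72 livers. The X72 livers lay close together below all X48 livers, and the difference was -1.09 ± 0.23 (SE, adjusted p = 0.00088) by limma. The flap endonuclease Fen1 changed by -0.90, adjusted p = 0.013, the helicase subunit Mcm7 by -0.81, adjusted p = 0.0051 and Gins3 by -0.84, adjusted p = 0.0015. The sliding clamp Pcna (13.3, 23.4, 17.4, 20.9 and 21.6 RPKM at 48 h, 18.6, 9.91 and 13.2 RPKM at 72 h) and Rrm2, the ribonucleotide reductase subunit, overlapped between the groups, with adjusted p = 0.089 and 0.53 by limma, and Mcm2 had -0.54 with adjusted p = 0.28. In contrast to the mitotic list, the list's level overlapped, at 1.18, 1.73, 1.56, 1.90 and 2.01 in the X48 livers and 1.22, 0.87 and 1.17 in the X72 livers: X48 replicate 1 stood below X72 replicate 1. The count of calls varied, at 2 with only X48 replicates 1 to 3, 8 without X72 replicate 2, 30 without X48 replicate 1 and 3 with only the 8 livers in the fit.

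Of 21 tested regulators of G1, 1 was called lower (4.76%), near the 3.73% of all genes tested, and none higher. It was Foxm1, the transcription factor of G2/M genes, with 5.02, 7.59, 6.89, 8.07 and 6.49 RPKM in the 5 X48 livers and 3.00, 3.82 and 3.81 RPKM in the 3 X72 livers (-0.89 ± 0.19 SE, adjusted p = 0.00095). Cyclin D1 (Ccnd1) had 49.3, 23.5, 20.5, 17.6 and 24.6 RPKM in the 5 X48 livers and 31.2, 16.3 and 39.2 RPKM in the 3 X72 livers, and the groups overlapped fully (0.10, adjusted p = 0.95); its level remained above the C0 mean of 3.64 ± 1.83 RPKM. Cyclins E1 and E2 differed by -0.13 and -0.36, and E2f1 by -0.43, none called. Among CDK inhibitors the change was mixed: p27 (Cdkn1b) fell by 0.60 and the INK4 members Cdkn2c and Cdkn2d by 0.71 and 0.77, whereas p57 (Cdkn1c), with 0.396, 0.489, 0.601, 0.774 and 0.470 RPKM in the 5 X48 livers and 0.770, 2.25 and 3.67 RPKM in the 3 X72 livers, rose by 1.46 (adjusted p = 0.0002). X72 replicate 1 lay just below the highest X48 liver for Cdkn1c. p21 (Cdkn1a) ranged widely at 72 h (37.1, 11.4 and 16.8 RPKM) and was not called (-0.57, adjusted p = 0.73). In the p53 target list Gtse1 fell by 0.92 and Dcxr rose by 0.80 among 24 tested. The tubulin and actin list had 7 of 27 (25.9%) called lower, against 3.73% of all genes tested, all of them tubulins or the tubulin-binding Stmn1. Tubb4b stood at 176, 229.6, 277, 322 and 217 RPKM in the 5 X48 livers and 99.2, 128 and 126 RPKM in the 3 X72 livers, without overlap, -1.03 ± 0.19 (SE, adjusted p = 0.00017). The count of the tubulin and actin list was 4 without X72 replicate 2.

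Lists of the machinery of growth held almost no calls. By limma, none of 57 ribosome biogenesis genes, 82 ribosomal protein genes, 37 proteasome genes, 30 ER stress genes and 21 heat shock genes was called. Of them, 8, 3, 11, 6 and 5 had an unadjusted p below 0.05, as did 3280 of all 15396 genes tested. Nucleolin (Ncl) and fibrillarin (Fbl), abundant nucleolar proteins, had differences of -0.13 ± 0.10 and -0.08 ± 0.12 (SE). The polyamine list held 1 call of 12 (8.33%), where 2.23% of all genes tested were called higher. It was Paox, which breaks polyamines down, with 5.46 to 9.85 RPKM at 48 h and 19.7 to 21.9 RPKM at 72 h (1.39 ± 0.20 SE, adjusted p = 1.4e-06). Ornithine decarboxylase (Odc1) had -0.26, adjusted p = 0.52. Among 84 nuclear genes of the respiratory chain only Cox7a1 was called by limma, at 1.29. Small shifts in 1 direction were present all the same. Of these 84, 69 had an estimate above 0 (median 0.11) and 23 an unadjusted p below 0.05. In the proteasome list 33 of 37 had an estimate below 0 (median -0.12). Of all genes tested, 6165 had an estimate above 0 and 9216 below.

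**Figure D3:**
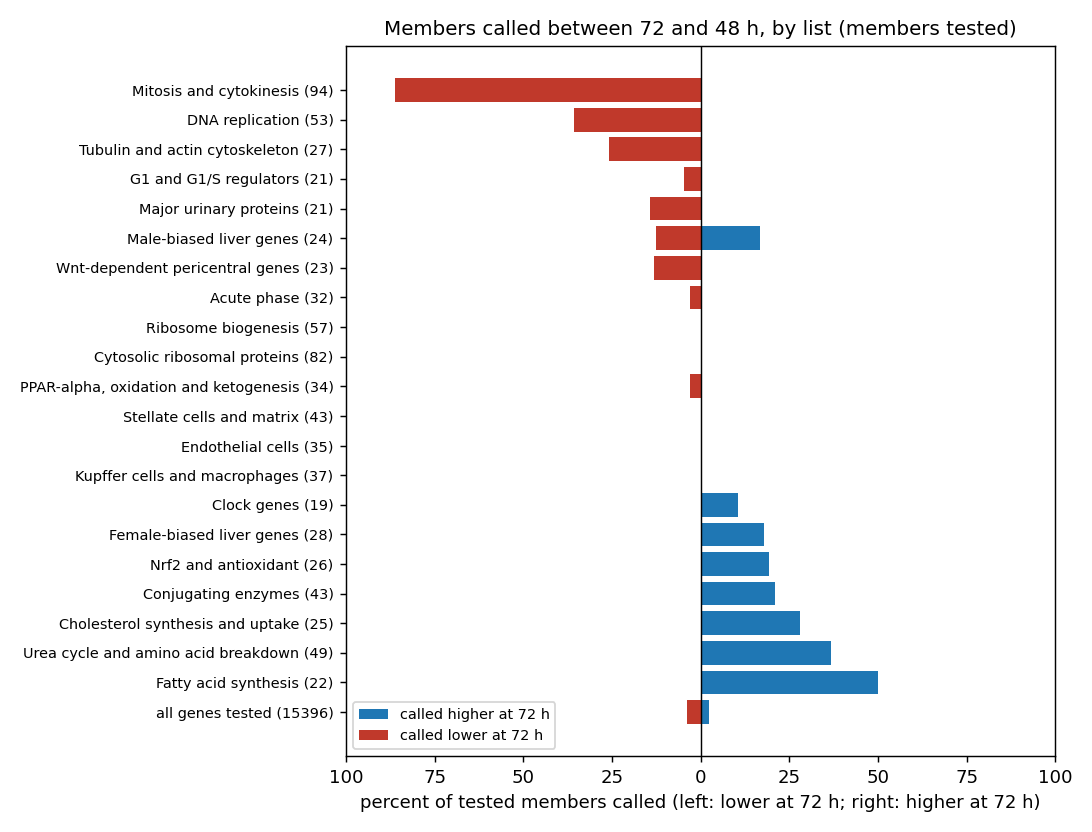
Bars give, for 21 gene lists and for all genes tested, the percent of tested members called lower (red, to the left) and higher (blue, to the right) at 72 h; the number in brackets after each name is the number tested. Mitosis stands out on the left with 81 of 94, fatty acid synthesis on the right with 11 of 22, and the 3 lists of other cell types have no bar.

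Fatty acid synthesis had the largest median rise among the lists. Of 22 tested members of that list 11 were called higher and none lower, where 2.23% of all genes tested were called higher, and the median difference was 1.01. Fasn, the fatty acid synthase (chromosome 11, 120667254 to 120685492 of NCBIM37, reverse strand), had 19.6, 34.9, 16.5, 22.5 and 12.6 RPKM in the 5 X48 livers and 131, 53.7 and 185 RPKM in the 3 X72 livers. The lowest X72 liver, replicate 2, still exceeded the highest X48 liver, and the rise was 2.43 ± 0.39 (SE, adjusted p = 1.4e-05) by limma, 5.41-fold. Acly, which makes cytosolic acetyl-CoA from citrate, stood at 26.7, 35.5, 27.6, 30.8 and 25.3 RPKM in the 5 X48 livers and 161, 98.6 and 199 RPKM in the 3 X72 livers. It rose by 2.33 ± 0.37 (SE, adjusted p = 1e-05) with no overlap. Acaca, the acetyl-CoA carboxylase that supplies malonyl-CoA, had 7.09, 8.86, 7.04, 7.76 and 7.23 RPKM in the 5 X48 livers and 18.9, 14.9 and 20.8 RPKM in the 3 X72 livers, and its mitochondrial relative Acacb rose by 1.87. Both were called (adjusted p = 2.6e-05 and 1.2e-05). The elongase Elovl6 rose by 1.47, adjusted p = 0.00019, and Gpam, which begins glycerolipid assembly, stood at 18.8 to 26.9 RPKM at 48 h and 66.0 to 182 RPKM at 72 h (2.36 ± 0.28 SE, adjusted p = 1.1e-08), the smallest adjusted p of the list.

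Scd1, the stearoyl-CoA desaturase, had the largest rise in the list, with 45.2, 166, 63.1, 176 and 36.9 RPKM in the 5 X48 livers and 1052, 575 and 927 RPKM in the 3 X72 livers. It rose 10.4-fold (3.38 ± 0.52 SE, adjusted p = 7e-06), yet all X72 livers remained under the C0 mean of 1732 ± 611 RPKM (SD, n = 9). The X48 livers themselves differed several-fold, with replicates 2 and 4 above the others. Neighbouring desaturase genes on chromosome 19 also rose: Scd2 by 2.15, Scd3 by 3.25 and Scd4 by 1.77. Their sequences are alike and reads with several positions were split between them, so the values of Scd3 and Scd4 in particular are uncertain. Thrsp (Spot 14), a lipogenic regulator, had 34.0, 46.7, 18.6, 33.3 and 11.1 RPKM in the 5 X48 livers and 258, 94.8 and 307 RPKM in the 3 X72 livers and rose by 2.92 ± 0.56 (SE, adjusted p = 0.00019). Pnpla3, a lipid-droplet acyl hydrolase, was near the limit of detection at 48 h, at 0.0196 to 0.0823 RPKM at 48 h and 0.482 to 4.89 RPKM at 72 h, a difference of 2.96 ± 0.46 (SE, adjusted p = 1e-05). Srebf1, which encodes the SREBP-1 activator of this set, stood at 8.87, 32.6, 16.6, 28.6 and 7.63 RPKM in the 5 X48 livers and 34.8, 39.0 and 62.6 RPKM in the 3 X72 livers: the groups touched without overlapping, since X48 replicate 2 came close to X72 replicate 1, and the change was 1.44 ± 0.39 (SE, adjusted p = 0.0098). The call for Srebf1 was lost without X48 replicate 5, at 1.18 (adjusted p = 0.059), and without X72 replicate 3, at 1.19 (adjusted p = 0.11). Mlxipl (ChREBP) had 0.62, adjusted p = 0.19 and the malic enzyme Me1 0.42, adjusted p = 0.43, neither called. Acss2 and Aacs, outside the list and supplying acetyl-CoA and acetoacetyl-CoA, rose by 2.20 and 2.35; they were chosen after their values were seen.

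The level of the fatty acid list was -0.70, -0.43, -0.68, -0.63 and -0.89 in the X48 livers and 0.40, 0.30 and 0.74 in the X72 livers, relative to C0, so that the 2 groups lay on opposite sides of the resting mean. In the fit the list's median difference from C0 was -0.59 at 48 h and 0.33 at 72 h. Against C0 the scaling matters, since the median of all genes was 0.24 at 48 h and 0.21 at 72 h and moved to -0.12 and -0.08 with a common median; these differences are to be read relative to that shift. X72 replicate 2 had the lowest value of the 3 X72 livers for Fasn, Acly, Acaca, Elovl6, Scd1, Gpam and Thrsp. The number of fatty acid calls nevertheless stayed within 1.5 times of 11 under all settings tried, and the list's median within 0.86 to 1.22.

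**Figure D4:**
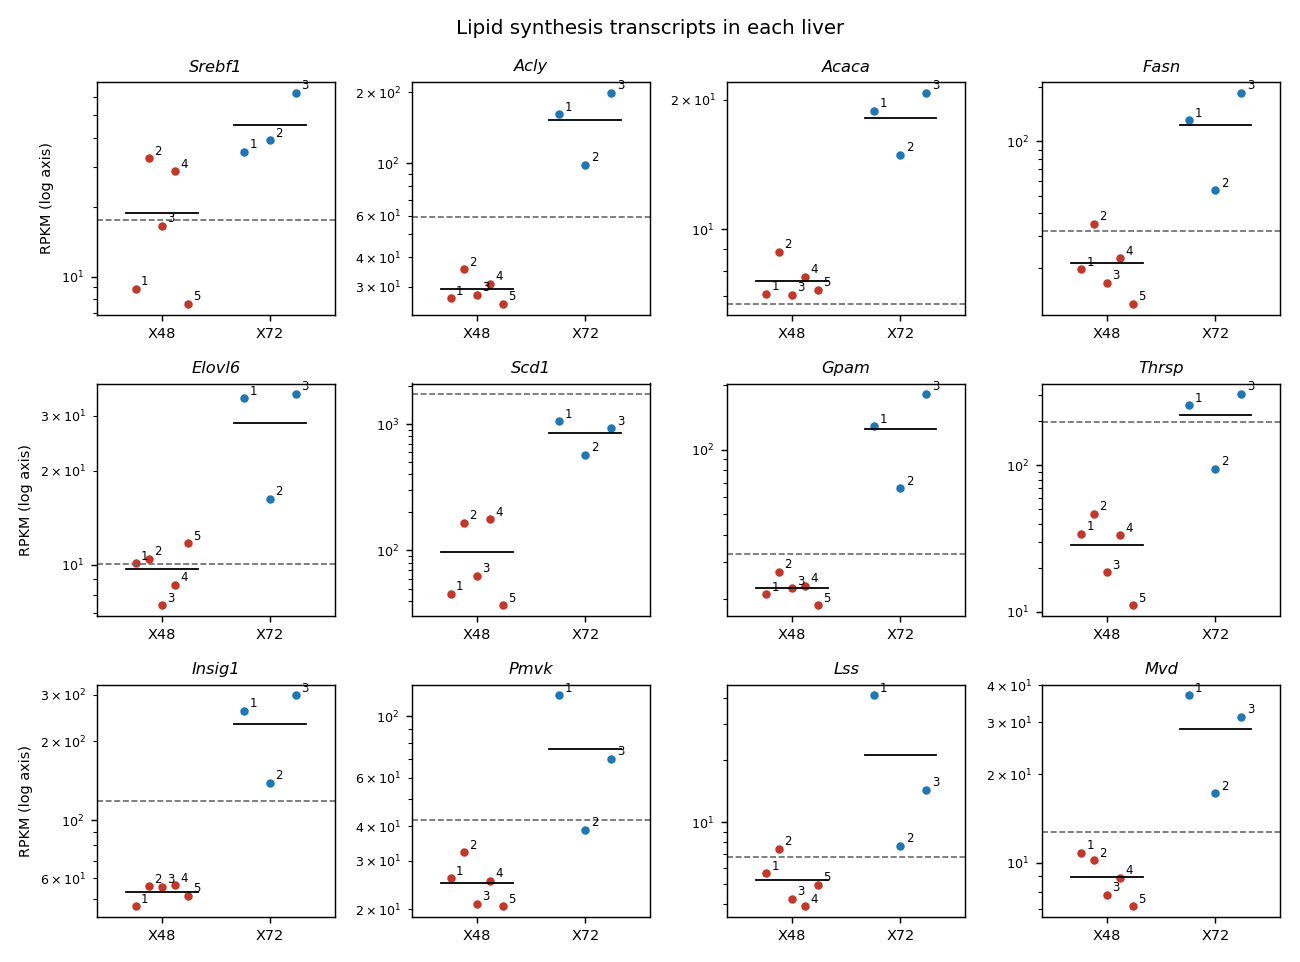
RPKM (log axes) of 12 lipid genes in each X48 liver (red) and each X72 liver (blue), numbered by replicate; black bars are group means and the dashed line is the mean of the 9 C0 livers. No X72 point falls below the highest X48 point in any panel, and X72 replicate 2 is the lowest of the 3 in most. Some of these genes were named under a rule that asks for no overlap, and Acly, Acaca and Gpam were chosen after their values were seen. The separation was thus partly set by the choice. The overlapping Acat2 and the uncalled Sqle, Mlxipl and Me1 are not shown.

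Cholesterol synthesis and uptake changed less evenly, with 7 of 25 tested members (28%) called higher, against 2.23% of all genes tested. None was called lower, and the median difference was 0.68. Insig1, the sterol sensor that retains SREBPs in the ER, had 46.9, 55.9, 55.7, 56.5 and 51.5 RPKM in the 5 X48 livers and 261, 139 and 299 RPKM in the 3 X72 livers. The X48 livers were tightly grouped and all X72 livers exceeded them, 2.05 ± 0.42 (SE, adjusted p = 0.00048) by limma. Lanosterol synthase (Lss) stood at 5.66, 7.46, 4.26, 3.91 and 4.98 RPKM in the 5 X48 livers and 41.4, 7.72 and 14.4 RPKM in the 3 X72 livers, and X72 replicate 2 exceeded the highest X48 liver only narrowly; the change was 1.66 ± 0.41 (SE, adjusted p = 0.0043), and 1.01 (adjusted p = 0.19) without X72 replicate 1, no longer called by limma. The mevalonate-pathway enzymes Pmvk and Mvd rose by 1.47, adjusted p = 0.0044 and 1.59, adjusted p = 0.041. Sc5d, a late sterol enzyme, and the thiolase Acat2 were also called, at 0.96 and 0.68. Without X72 replicate 1 none of these 4 was called by limma, with Pmvk at 1.07 (adjusted p = 0.12), Mvd at 1.36 (adjusted p = 0.19), Sc5d at 0.92 (adjusted p = 0.092) and Acat2 at 0.40 (adjusted p = 0.38), and Mvd and Acat2 were also not called without X48 replicate 3, 4 or 5. The level of the list overlapped, at 0.06, -0.14, -0.11, -0.32 and -0.02 in the X48 livers and 1.34, -0.07 and 0.59 in the X72 livers, with X72 replicate 2 among the X48 livers. Squalene epoxidase (Sqle) had 0.89, adjusted p = 0.2, and Hmgcs1 is listed at 0 in all 8 livers. The count of called members was 2 without X72 replicate 1 and 3 without X72 replicate 3.

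Of the 49 tested enzymes of the urea cycle and of amino acid breakdown 18 were called higher and none lower, against 2.23% of all genes called higher. The other 31 were not called, 4 of the 49 had an estimate below 0, and the median difference was 0.46. Cps1, which fixes ammonia in the first step of the urea cycle (chromosome 1, 67169600 to 67277833 of NCBIM37, forward strand), had 414, 516, 465, 479.7 and 475 RPKM in the 5 X48 livers and 1375, 1121 and 1329.6 RPKM in the 3 X72 livers. All X72 livers were far above the highest X48 liver, and the difference was 1.44 ± 0.21 (SE, adjusted p = 1.5e-06). Ass1, argininosuccinate synthase, stood at 494, 914, 622, 836 and 504 RPKM in the 5 X48 livers and 1886, 1617 and 2059 RPKM in the 3 X72 livers, likewise without overlap, 1.5 ± 0.21 (SE, adjusted p = 5.2e-07). Other enzymes of the cycle changed less: Otc had 0.49, adjusted p = 0.019 and fell short of the size limit, Asl had 0.61, adjusted p = 0.078 and Arg1 0.41, adjusted p = 0.096. Amino acid enzymes that rose included cystathionine gamma-lyase Cth (1.11), glutaminase Gls2 (1.06), the histidine-degrading Uroc1 (1.00) and Hal (0.92), the tyrosine-degrading Hpd (0.85), alanine aminotransferase Gpt (0.84) and Dbt of branched-chain breakdown (0.89), all called. Tat and Sds, which respond strongly to glucocorticoids and glucagon, were not called (0.34, adjusted p = 0.69 and 0.15, adjusted p = 0.89).

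The level of the urea and amino acid list was -0.55, -0.31, -0.29, -0.40 and -0.61 in the X48 livers and 0.04, 0.12 and 0.18 in the X72 livers, with no overlap. Its median difference from C0 was -0.41 at 48 h and 0.04 at 72 h. Cps1 averaged 598 ± 230.4 RPKM in C0, 487 ± 100.1 at 44 h and 804 ± 131 at 1 week (each ± SD), and its 72 h mean of 1275 RPKM was above all of them. The 44 h livers were taken in the dark feeding phase. The list had 11 calls with only X48 replicates 1 to 3, and its median stayed between 0.40 and 0.56 under all settings tried.

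**Figure D5:**
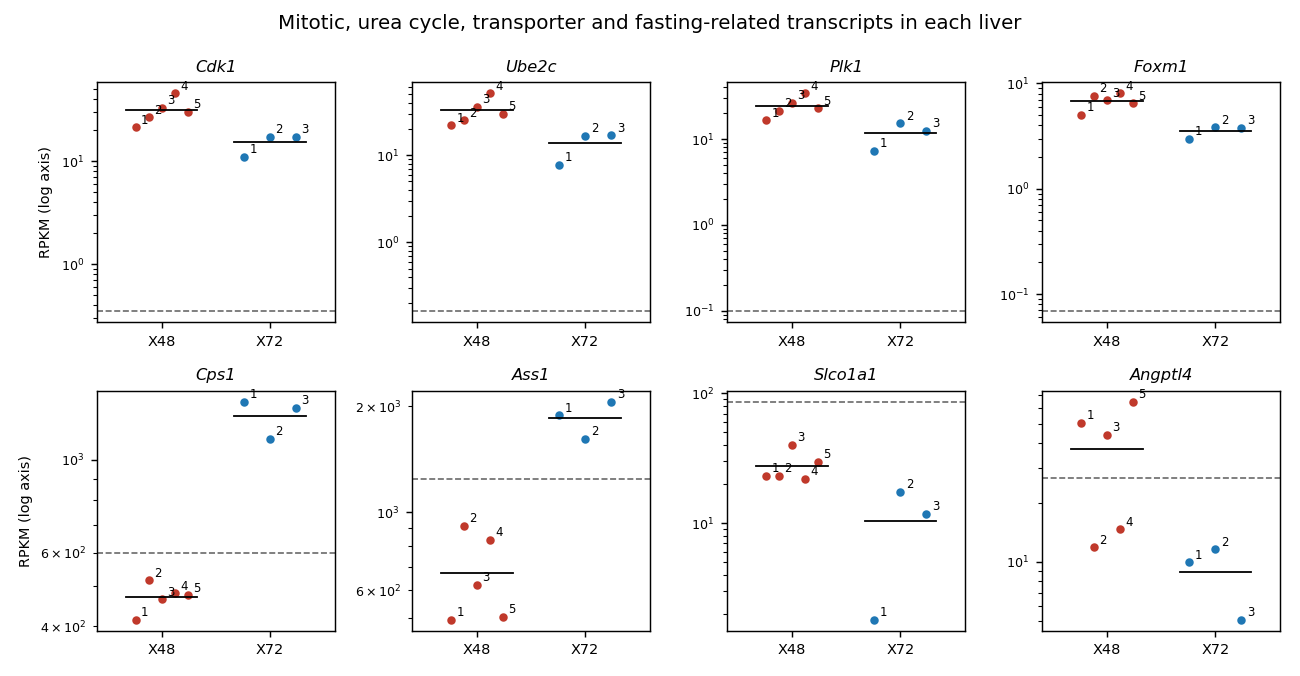
RPKM (log axes) of 8 genes in each X48 liver (red) and X72 liver (blue), numbered by replicate, with group means as black bars and the mean of the 9 C0 livers as a dashed line. The 4 cell cycle genes of the upper row lie lower at 72 h but far above C0, Cps1 and Ass1 lie above C0 at 72 h, and Slco1a1 and Angptl4 lie below it, with X48 replicates 2 and 4 of Angptl4 close to the X72 livers.

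Conjugating enzymes were higher in 9 of 43 tested members (20.9%), against 2.23% of all genes tested, and lower in none (median 0.36). The glutathione transferase Gsta1 had 0.608, 24.8, 9.78, 39.3 and 10.5 RPKM in the 5 X48 livers and 94.2, 54.5 and 86.5 RPKM in the 3 X72 livers. X48 replicate 1 was far below the other X48 livers, the groups did not overlap, and the rise was 2.96 ± 0.67 (SE, adjusted p = 0.0017). Its close copies on chromosome 9 moved alike, Gsta2 by 1.94, Gm3776 by 3.08 and Gm10639 by 2.27, but split reads make their separate values uncertain. Gstt3 rose by 1.03, and Gstp1 and Gstp2, also near-identical to each other, by 0.76 and 0.77 with overlapping livers. The count fell to 5 without X48 replicate 1, to 5 without X72 replicate 1 and to none with only the 8 livers fitted. In the Nrf2 and antioxidant list 5 of 26 (19.2%) were called higher, among them catalase (Cat, 0.65) and G6pdx, the NADPH-producing enzyme of the pentose phosphate pathway (1.77, with 0.736 to 1.16 RPKM at 48 h and 1.65 to 7.45 RPKM at 72 h). The others were Gsta1, Gsta2 and Gstp1 of the conjugating list. The classical Nrf2 targets Nqo1 and Hmox1 were not called (-0.21 and -0.18).

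Sex-biased transcripts, which in mouse liver follow the pattern of growth hormone secretion, changed in both directions. Of the female-biased list 5 of 28 (17.9%) were called higher, against 2.23% of all genes tested, and none lower (median 0.42). Sult2a2, a sulphotransferase of steroids and bile acids, had 0.0323, 0, 0.0506, 0.139 and 0 RPKM in the 5 X48 livers and 3.35, 0.825 and 0.407 RPKM in the 3 X72 livers. The rise from near 0 was 2.23 ± 0.23 (SE, adjusted p = 1e-10 by limma). That SE comes from the spread shared among all groups and does not measure the several-fold spread of the 3 X72 livers. The close copy Sult2a1 rose by 1.56. Cyp2a4 had 1.32, 5.68, 5.17, 7.07 and 2.33 RPKM in the 5 X48 livers and 9.84, 9.06 and 38.5 RPKM in the 3 X72 livers; X72 replicate 3 stood well above the other livers, and the rise was 1.97 ± 0.47 (SE, adjusted p = 0.003), or 1.30 (adjusted p = 0.14) by limma without that replicate. Prom1 was also called (1.90) with overlapping livers, whereas Cyp2b9 and A1bg were not (1.49, adjusted p = 0.15 and 1.03, adjusted p = 0.4). The count of female-biased calls was 2 when only genes above log2 RPKM 0 in 3 libraries were tested and 0 when only the 8 livers were fitted. In the male-biased list 4 of 24 (16.7%) were called higher and 3 (12.5%) lower, against 2.23% and 3.73% of all genes tested. Slco1a1, an organic anion transporter of the sinusoidal membrane, showed the largest fall under the rule for named genes, with 23.1, 23.2, 40.1, 21.97 and 29.6 RPKM in the 5 X48 livers and 1.79, 17.4 and 11.8 RPKM in the 3 X72 livers. X72 replicate 1 was far below the rest, no livers overlapped, and the difference was -1.84 ± 0.37 (SE, adjusted p = 0.00045); without that replicate it was -0.90 (adjusted p = 0.14) and not called by limma. Mup21 and Serpina1e were the other members that fell. Those that rose were Cml5 (1.54), Nudt7 (1.08), Gstp1 and Gstp2. Cyp4a12a, Cyp7b1, Hsd3b5 and Elovl3 were not called (adjusted p = 0.29, 0.26, 0.87 and 0.092 by limma).

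Major urinary proteins, secreted pheromone carriers encoded by near-identical genes, had a median difference of -1.02. Of 21 tested, 3 (14.3%) were called lower, against 3.73% of all genes tested: Mup21, Mup3 and Mup10 (-1.48, -0.92 and -0.85). Summed over the family, which avoids the split of reads among copies, the level was 19299 to 44558 RPKM at 48 h and 12174 to 18731 RPKM at 72 h. X48 replicate 1 was the lowest of its group at 19299 RPKM, just above the highest X72 liver, and the C0 mean was 76241 ± 12006 RPKM. Mup11 and Mup17 missed the threshold (adjusted p = 0.088 and 0.13 by limma). No member of the growth hormone and IGF list was called by limma. Of 21 tested, 1 had an unadjusted p below 0.05, against 3280 of all 15396 genes. Igf1 had 0.24, adjusted p = 0.35 and the growth hormone receptor Ghr 0.26, adjusted p = 0.31.

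Plasma proteins, acute phase proteins and cytochromes P450 held few calls. Of the plasma protein list 2.90% were called higher and 4.35% lower, of the P450 list 5.00% and 3.33% and of the acute phase list 0% and 3.12%, near the 2.23% and 3.73% of all genes tested. Albumin (Alb), the most abundant secreted product, stood at 25499.5, 27216, 27338, 28325 and 23952 RPKM in the 5 X48 livers and 38225, 38796 and 48176 RPKM in the 3 X72 livers. All X72 livers exceeded all X48 livers, and the difference was 0.65 ± 0.18 (SE, adjusted p = 0.011), against a C0 mean of 34621 ± 3316 RPKM. It was 0.54 (adjusted p = 0.11) by limma without X72 replicate 3. Transthyretin (Ttr) rose by 0.61, and Serpina1e, Apoa5 and Hrg fell by 0.99, 0.75 and 0.51, out of 69 tested. Of the acute phase list 1 of 32 was called, Serpina3n, at 1966, 1477, 1434, 1125 and 1741 RPKM in the 5 X48 livers and 1226, 709 and 468 RPKM in the 3 X72 livers (-1.04 ± 0.25 SE, adjusted p = 0.0028), and -0.71 (adjusted p = 0.12) without X72 replicate 3. Serum amyloid A1 (Saa1) spanned 3006 to 7138 RPKM at 48 h and 983 to 8292 RPKM at 72 h, and neither its difference of -0.27 (adjusted p = 0.91) nor that of its near-identical copy Saa2, -0.25, was called by limma. Among 60 P450 genes 3 rose and 2 fell. Cyp3a11, the main xenobiotic P450 of mouse liver, rose, with 1022 to 1536 RPKM at 48 h and 2178 to 3341 RPKM at 72 h (0.93, adjusted p = 0.0051), Cyp4f16 rose by 0.59, and Cyp2c54 and Cyp2c37 fell by 1.27 and 0.89. Without X72 replicate 1 Cyp2c37 stood at -0.54 (adjusted p = 0.39) and Cyp2c54 at -0.95 (adjusted p = 0.19), neither called by limma. In the bile acid list, where the fall was that of Slco1a1, Akr1d1 rose by 0.98 and Nr1h4, the bile acid receptor FXR, by 0.64, while Cyp7a1, the rate-limiting enzyme of bile acid synthesis, was not called (0.62, adjusted p = 0.65). Nr1h4 was also the 1 call of 21 hepatocyte transcription factors; Hnf4a had 0.06, adjusted p = 0.92 and Cebpa 0.50, adjusted p = 0.077.

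Angptl4 and Pck1, both induced by fasting, were called lower, as 1 of 34 members (2.94%) and 1 of 28 (3.57%) of their lists, near the 3.73% of all genes. Angptl4, an inhibitor of lipoprotein lipase, had 50.6, 11.9, 44.1, 14.6 and 64.5 RPKM in the 5 X48 livers and 9.94, 11.6 and 5.09 RPKM in the 3 X72 livers. X48 replicates 2 and 4 were close to the highest X72 liver, and the groups were separated only narrowly; the difference was -1.82 ± 0.40 (SE, adjusted p = 0.0014), the next largest fall under that rule. Pck1, the gluconeogenic PEP carboxykinase, had 493, 339, 548, 399 and 826 RPKM in the 5 X48 livers and 200.1, 273 and 119.8 RPKM in the 3 X72 livers and fell by 1.41 ± 0.36 (SE, adjusted p = 0.006) without overlap, or by 1.09 (adjusted p = 0.11) without X72 replicate 3. These were the only calls by limma among 34 genes of PPAR-alpha, oxidation and ketogenesis and 28 genes of glucose metabolism: Cpt1a had -0.53, adjusted p = 0.11 and G6pc -1.14, adjusted p = 0.12. In the lipid droplet list lipoprotein lipase (Lpl) rose, with 2.19 to 4.68 RPKM at 48 h and 6.66 to 10.7 RPKM at 72 h (1.17, adjusted p = 0.017). It was the only call of 19 (5.26%), where 2.23% of all genes tested were called higher, and Cd36 had 0.80, adjusted p = 0.12.

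Apart from the Wnt-dependent pericentral and fetal lists, the signalling and identity lists held at most 1 call each. Of all genes tested, 2.23% were called higher and 3.73% lower. The pericentral list exceeded that share of lower calls. The fetal list, with 4 of 21 called higher, and the clock list exceeded that of higher calls. In the Wnt-dependent pericentral list 3 of 23 fell: glutamine synthetase (Glul), with 188 to 306 RPKM at 48 h and 126 to 177 RPKM at 72 h (-0.63, adjusted p = 0.023), the glutamate transporter Slc1a2 (-0.86, adjusted p = 0.00058) and the R-spondin receptor Lgr5 (-0.71, adjusted p = 0.011). Axin2 and Cyp2e1 did not overlap between the groups but missed the threshold (adjusted p = 0.078 and 0.06 by limma). Inhba, the activin A subunit, was the 1 call of 31 genes of the TGF-beta family, with 2.10, 1.48, 0.926, 1.39 and 2.01 RPKM in the 5 X48 livers and 2.90, 4.17 and 8.28 RPKM in the 3 X72 livers, a rise of 1.47 ± 0.32 (SE, adjusted p = 0.0012), or 1.07 (adjusted p = 0.059) without X72 replicate 3. Of the Hippo and Yap list only Birc5, which is also a mitotic gene, was called by limma, and Ctgf and Cyr61 had -0.18 and -0.36. Fetal markers were mixed: Afp rose, with 0.664 to 1.25 RPKM at 48 h and 1.40 to 4.13 RPKM at 72 h (1.06, adjusted p = 0.029), Scd2 rose, H19 and Igf2bp3 rose by 0.53 and 0.52 at levels under 1 RPKM, and Lgr5 fell. Without X72 replicate 1 these rises were not called by limma for Afp, at 0.65 (adjusted p = 0.36), H19, at 0.36 (adjusted p = 0.36), or Igf2bp3, at 0.32 (adjusted p = 0.14). Afp was also not called without X48 replicate 1 or 2 and Igf2bp3 without X48 replicate 3, and the call of H19 was lost for each liver left out except X48 replicate 2. Among interferon and STAT3 genes Oasl1 was the 1 call of 33 (0.93), and it stood at 0.58 (adjusted p = 0.41) without X72 replicate 3. No gene was called by limma in the lists of HGF, EGF receptor and FGF (18 tested, 1 with an unadjusted p below 0.05), chemokines (32 and 1) and AP-1 (25 and 1). Over all genes these numbers were 15396 and 3280. Although both groups were taken at ZT2, 2 of 19 clock genes were called: Per2, with 0.858, 0.890, 0.698, 0.671 and 0.574 RPKM in the 5 X48 livers and 2.65, 1.44 and 3.08 RPKM in the 3 X72 livers (1.37 ± 0.29 SE, adjusted p = 0.00092), and the clock repressor Gm129 (1.42, adjusted p = 0.013), which stood at 0.83 (adjusted p = 0.3) without X72 replicate 1, whereas Arntl and Nr1d1 had -0.06, adjusted p = 0.94 and 0.59, adjusted p = 0.63.

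Several of the largest changes belonged to none of the pathways above. The largest rise under the rule for named genes was that of Chrna4, an acetylcholine receptor subunit, with 0.358, 1.21, 0.432, 1.82 and 0.367 RPKM in the 5 X48 livers and 17.5, 4.31 and 18.3 RPKM in the 3 X72 livers, 3.59 ± 0.65 (SE, adjusted p = 0.00011); its C0 mean was 4.38 ± 2.14 RPKM. Hamp2, a relative of the iron hormone hepcidin, had 1.97, 1.57, 1.07, 0.649 and 0.985 RPKM in the 5 X48 livers and 9.18, 8.84 and 8.76 RPKM in the 3 X72 livers, and the X72 livers lay close together above all X48 livers. It rose by 2.69 ± 0.50 (SE, adjusted p = 0.00013) but remained below the C0 mean of 51.3 ± 27.1 RPKM, and hepcidin itself (Hamp) overlapped between the groups (-0.46, adjusted p = 0.66); the 2 genes are similar in sequence. In the same iron list the transferrin receptor (Tfrc) rose by 0.98, and the metallothioneins Mt1 and Mt2 were not called. Akr1b7, an aldo-keto reductase, stood at 1.34 to 6.86 RPKM at 48 h and 7.34 to 42.1 RPKM at 72 h (2.51 ± 0.51 SE, adjusted p = 0.00045). Among the falls were Pcp4l1 (-1.37, adjusted p = 0.00041), 2810007J24Rik (-1.24, adjusted p = 0.021), Gm13086 (-1.31, adjusted p = 0.029) and E130306D19Rik (-1.21, adjusted p = 5e-05), and 2810007J24Rik stood at 5.17, 32.6 and 32.2 RPKM in X72, lowest in replicate 1. It was not called by limma without that liver, at -0.37 (adjusted p = 0.68), or without X48 replicate 3, at -1.14 (adjusted p = 0.055), and Gm13086 stood at -0.95 (adjusted p = 0.27) without X72 replicate 3. Of 34 transcripts that the study named on these samples, 11 (32.4%) were called lower and 1 (2.94%) higher, against 3.73% and 2.23% of all genes tested. The study's choice is not independent of the data. Besides Alb, which rose, and the mitotic genes already named, those called were Ccna2 (-0.87), Cdca2, Cdc25c, Kctd9, Ube2t and Rad51ap1 (-0.89, -0.98, -0.50, -1.04 and -0.75).

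Few markers of other cell types were called. By limma, no stellate (43 tested), endothelial (35), macrophage (37), neutrophil (15), B cell (11), T and NK cell (12), cholangiocyte (15) or muscle (2) marker was called. Of them, 0, 3, 1, 3, 0, 1, 0 and 0 had an unadjusted p below 0.05, against 3280 of all 15396 genes tested. Summed over their lists, stellate and matrix genes reached 428 to 634 RPKM at 48 h and 465 to 576 RPKM at 72 h, endothelial genes 83.5 to 107 RPKM at 48 h and 93.9 to 100.4 RPKM at 72 h and macrophage genes 135 to 255 RPKM at 48 h and 158 to 258 RPKM at 72 h. The matrix genes Col1a1 and Acta2 varied more within X48 (1.87 to 14.8 and 0.398 to 7.23 RPKM) than between the groups. At these levels they made up little of the stellate and matrix sum at 48 h, which does not stand for them. The neutrophil list reached 454 to 1003 RPKM at 48 h and 204 to 787 RPKM at 72 h in sum. Most of the 72 h sum was Lcn2, also an acute phase protein, whose values are given below, so the sum does not stand for the other members. The list's median level relative to C0 was -0.04, 0.24, 0.88, 0.15 and 0.50 in the X48 livers and 1.48, 1.22 and 0.26 in the X72 livers, highest in X72 replicates 1 and 2. The neutrophil proteins S100a8 and S100a9 were highest in X72 replicate 1 (11.7 and 14.9 RPKM). Of 8 erythroid markers tested, Tfrc and Car1 (25%) were called higher, against 2.23% of all genes tested. They rose by 0.98 and 0.81, the latter below 1 RPKM in all 8 livers, while the haemoglobin genes Hba-a1 and Hbb-b1 overlapped. All 8 had estimates above 0, with a median difference of 0.48, a summed level of 35.2 to 71.3 RPKM at 48 h and 51.5 to 94.9 RPKM at 72 h and a median level relative to C0 of -0.01, 0.88, -0.30, 0.83 and 0.42 in the X48 livers and 0.46, 0.76 and 1.5 in the X72 livers. The part of neutrophil and erythroid transcripts in the other changes was not tested. The acinar list summed to 6.56 to 12.0 RPKM at 48 h and 11.6 to 18.5 RPKM at 72 h; Spink3, a trypsin inhibitor on it, rose by 1.59, adjusted p = 0.0093, or 1.05 (adjusted p = 0.21) without X72 replicate 1. The acinar markers Prss2 and Try4 and the muscle marker Ckm are listed at 0 in all 8 livers, which does not show that they were absent, since Hmgcs1 and 1 gene of the cytosolic ribosomal protein list are listed at 0 as well. Alb, the defining product of hepatocytes, stood at 23952 RPKM or more in all 8 livers.

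Set against resting livers, both times were still far from C0. Of all genes tested, 4688 (30.4%) were called higher and 1180 (7.66%) lower at 48 h, 5868 (38.1%) in all, and 4096 (26.6%) were called higher and 1015 (6.59%) lower at 72 h, 5111 (33.2%) in all. The direction of that split rested on the scaling. Of the called genes, 79.9% at 48 h and 80.1% at 72 h were higher, but only 34.1% of 4825 and 40.8% of 4313 with the libraries scaled to a common median and 43.6% of 4671 and 49.7% of 4183 with a common upper quartile. The counts by list that follow are those without rescaling. These contrasts share the C0 livers, and each shares its regenerating livers with the comparison of X72 and X48. In the mitosis list 92 members were called higher at 48 h and 92 at 72 h, with median differences from C0 of 4.05 and 3.17. The DNA replication list had 50 and 42 higher members, with medians of 1.64 and 1.11. Of the fatty acid list, 11 members were lower and 1 higher at 48 h, whereas 2 were lower and 10 higher at 72 h. The urea and amino acid list had 21 lower and 5 higher members at 48 h and 6 lower and 16 higher at 72 h. Among major urinary proteins 19 were lower at 48 h and 20 at 72 h.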

How the data were processed

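Poly(A) RNA of single livers was sequenced as stranded, single-end mRNA libraries. Per the labels and the study's methods, the authors trimmed and filtered the reads, aligned them with TopHat2 2.0.13 and Bowtie2 to NCBIM37 (mm9), handled alignments with SAMtools 0.1.19, and counted reads on the transcribed strand of Ensembl genes with featureCounts, giving a read with several positions to each as a fraction. They deposited a log2 RPKM value per gene and library, with a gene without reads set to the lowest value of the table (-14.3), and these deposited values were the input here. Split reads can share signal among near-identical genes. Of 84 value columns, 4 matched no labelled sample and were not used, and 7 labelled samples without a column were not analysed here.

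Values were turned back to RPKM, 0.25 was added and log2 taken. The 15396 genes with log2 RPKM above -1.5 in at least 1 library were fitted with limma 3.58.1 (R 4.3.3; moderated test with a trend of the prior variance) with a coefficient for each of 19 groups, and p-values were adjusted by Benjamini-Hochberg over all genes. Scripts were tested on simulated data. Depth was estimated from the spacing of low values, of which 73.4% to 75.7% lay within 0.05 of a whole multiple of 1 read, too few to recover reads, so depth is approximate and no counting intervals are given. For X48 and X72 it came to 20.9 to 38.6 M reads. Replicate numbers shared by X48 and X72 did not pair the livers: correlations of deviations for equal numbers were 0.091, -0.041 and 0.046. Gene coordinates are those of NCBIM37; promoters are RefSeq sequences of GRCm38.p6, matched by symbol, and no coordinates were converted.

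Genes were named by rule: the 10 largest rises and 10 largest falls among called genes with a mean log2 RPKM above 0 in either group and no overlapping livers; in each of 51 lists, marked members and up to 4 called members with the largest change under the same conditions; and transcripts the study names. Chosen after their values were seen were Gpam, Acly, Scd2, Acacb, Acaca, Scd4, Gm10639, Acss2, Aacs, Me1, Mlxipl, Sc5d, Acat2, Uroc1, Dbt, Hpd, Gpt, Otc, Asl, Hal, Sult2a1, Prom1, Cdkn1c, Cenpa, Mup21, Serpina1e, Apoa5, Ttr, Cyp2c37, Gm129, Car1, Spc24, Fam64a, Igf2bp3, Gstp1 and Gstp2. Some members of the lists are not reported here by name. The comparison and the lists were chosen with earlier results of these data known. Alternatives covered the pseudocount, the filter, scaling, the libraries fitted, the prior variance, a term for replicate number and each liver left out.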

Additional observations from a re-analysis of the deposited data

Results flagged for a closer look

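Among 185 genes named here, 5 had 1 X48 liver standing apart by Dixon's criterion (gap over range above 0.71 with 5 livers). The criterion was taken on log2(RPKM + 0.25), while the values below are RPKM. Chance alone gives about 1 in 20, and X72, with 3 livers, was not tested. Acat2 was highest in X48 replicate 2, at 48.2 RPKM against 41.3 to 42.6 RPKM in the other X48 livers. This thiolase of cholesterol synthesis was called higher at 72 h although that liver reached the lowest X72 liver. Cdkn1a was highest in X48 replicate 4, at 40.9 RPKM against 25.8 to 27.0 RPKM in the other X48 livers. Cyp2b9 was highest in X48 replicate 3, at 3.82 RPKM against 0.0484 to 0.382 RPKM in the other X48 livers. Nudt7 was lowest in X48 replicate 3, at 33.6 RPKM against 53.8 to 62.5 RPKM in the other X48 livers. Prom1 was highest in X48 replicate 1, at 2.13 RPKM against 0.307 to 0.502 RPKM in the other X48 livers. Prom1 was called higher at 72 h, and that liver lay above the lowest X72 liver.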

How the results depend on the processing

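None of the 125 called genes in the table of named genes turned its direction under the alternatives run. Fitting only the 8 livers gave 364 genes called in place of 918 (162 higher, 202 lower), with 12 mitosis, 3 DNA replication, 0 conjugating and 0 female-biased calls. A term for replicate number (replicate block), which the livers' correlations did not call for, gave 533 calls, 288 of them lower, with 48 mitosis, 2 DNA replication, 3 tubulin, 4 cholesterol and 10 urea and amino acid calls; X48 replicates 4 and 5 have no partner in it and drop out. With X48 replicates 1 to 3 only, 517 genes were called, 280 lower, with 42 mitosis, 2 DNA replication, 3 tubulin, 4 cholesterol and 11 urea and amino acid calls. With X48 replicates 4 and 5 only, 900 genes were called, 226 higher and 674 lower, against 575 lower with all livers. That fit gave 83 mitosis, 24 DNA replication, 3 cholesterol and 3 conjugating calls. Fewer livers enter these fits, yet the lower calls went down in some and up in another, and the cause was not tested. Scaling to a common median left 358 genes lower and 12 DNA replication calls, a pseudocount of 0.05 left 34 mitosis calls, and the stricter filter left 2 female-biased calls among fewer genes tested. Leaving out 1 liver gave 657 to 1001 calls (197 to 374 higher, 343 to 679 lower), 47 to 87 mitosis, 8 to 30 DNA replication, 4 to 7 tubulin, 10 to 11 fatty acid, 2 to 9 cholesterol, 13 to 21 urea and amino acid, 5 to 10 conjugating and 4 to 7 female-biased calls. The total counts against C0 (5868 at 48 h, 5111 at 72 h) stayed within 1.5 times, but a common median turned their higher share from 79.9% to 34.1% and from 80.1% to 40.8%. Of those genes, 84 or more remained called under each alternative other than the fit of the 8 livers, which left 44; without a trend in the prior variance 125 remained. With 3 X72 livers and whole-tissue values, small changes were not detectable, and values below about 1 RPKM rest on few reads.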

Other observations

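The 5 X48 livers differed among themselves in transcripts of the fed and fasted states, none of which was used to group them. Igfbp1, the insulin-repressed IGF-binding protein, stood at 171, 31.0, 182, 53.7 and 395 RPKM in X48 replicates 1 to 5. Pdk4, the kinase that shuts pyruvate out of oxidation, stood at 8.77, 2.03, 11.9, 2.72 and 14.7 RPKM in the same order, and the lipid-droplet protein Plin2 at 135, 61.0, 107, 64.6 and 162 RPKM. Replicates 2 and 4 were the lowest for all 3 genes, as they were for Angptl4 and G6pc, and the highest for Srebf1, Scd1 and Ass1. In the 3 X72 livers, Igfbp1 had 86.9, 158 and 18.9 RPKM and Plin2 87.8, 72.3 and 103 RPKM, overlapping X48, and neither was called (adjusted p = 0.49 and 0.82 by limma).

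Mt1, Lcn2 and Saa1, chosen after their values were seen, spread widely within X72. Metallothionein 1 (Mt1) stood at 1424, 532 and 168 RPKM, Lcn2, a siderophore-binding acute phase protein, at 709, 411 and 178 RPKM and Saa1 at 8292, 5881 and 983 RPKM in replicates 1, 2 and 3. The order of the 3 livers was the same in all of them, and each gene's X72 mean remained above its C0 mean, which was 22.5 ± 26.4 RPKM for Mt1, 7.02 ± 16.1 RPKM for Lcn2 and 121 ± 180.0 RPKM for Saa1. Vegfa, the endothelial growth factor, was above all X48 livers (8.29 to 10.0 RPKM at 48 h and 13.02 to 18.99 RPKM at 72 h) with an adjusted p of 0.069 by limma and a difference of 0.68.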
